A study of Homo sapiens with 3 samples.

Results

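The immune checkpoint ligands described here are 10 genes whose products on a tumour cell are read by inhibitory or costimulatory receptors of T cells, natural killer (NK) cells and phagocytes. They were chosen by name, as known ligands, and not by a cut on their values, though earlier results of these data were known. All 10 had a row among the 60880 gene rows of the count table. The series compares wild-type NCI-H1975 cells, an established human lung adenocarcinoma line, with a derivative resistant to anlotinib, a tyrosine kinase inhibitor given by mouth, by RNA-seq and ATAC-seq. Resistant cells in which the AP-2 transcription factor TFAP2A was knocked down form a further RNA-seq group. Values come from 1 library, the wild-type RNA-seq replicate 2, which is labelled wild type, with no drug selection or knockdown. Neither the 2 ATAC-seq samples of wild-type cells nor any resistant or knockdown sample was analysed here, so no contrast between cell states was made.

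T cells need a costimulatory signal beside antigen, and inhibitory receptors such as PD-1, CTLA-4 and TIGIT damp that response when they meet their ligands. Many of the ligands belong to the B7 family or to the nectin family of adhesion proteins. CD47 acts on phagocytes through the receptor SIRP alpha and is known as a signal against engulfment. In lung adenocarcinoma, PD-L1, the product of CD274, is the protein stained to guide antibody treatment against the PD-1 pathway.

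The library held 25012733 counts, so that 1 count equalled 0.040 CPM (counts per 1000000 counts). For a gene at 0 the limit used, 3 counts, was 0.12 CPM. A gene was called detected at 10 counts or more. By this rule 8 of the 10 ligands were detected, beside 69.7% of the 19056 protein-coding genes with a row. A set of 10 genes gives no ground to call that share particular to them. The same 69.7% stands beside the number detected in each gene list below. CPM here is not corrected for transcript length, so orders and ratios below are of read numbers. They carry over to transcript numbers only where counted lengths differ by less than the ratio given. Intervals are 95% Poisson or exact binomial intervals and cover counting error only, and there is no replicate check of any value. Markers listed for lung epithelial tumour cells were read first, and all 8 were detected, from 595 counts for NAPSA to 132533 for KRT7. Passing a minimum that 69.7% of protein-coding genes pass does not by itself identify the cell type.

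Reads of the checkpoint ligands were held mostly by PVR, CD276, CD47, NECTIN2 and CD274, in that order. The 10 genes together had 14483 counts, of which PVR had 43.6% (42.8 to 44.4), CD276 had 25.4% (24.7 to 26.1), CD47 had 13.6% (13.1 to 14.2), NECTIN2 had 10.6% (10.1 to 11.1) and CD274 had 5.25% (4.89 to 5.62). VTCN1, LGALS9 and PDCD1LG2 each held under 1% of these reads. CD80 and CD86 were under the minimum. The member nearest above the minimum was PDCD1LG2 with 54 counts, and the nearest below was CD80 with 1 count, so no member lay close to it. The median over all 10 genes was 17.5 CPM, beside 9.83 CPM over all protein-coding genes with a row. Over detected genes alone, the medians were 45.9 CPM for 8 ligands and 26.4 CPM for 13279 protein-coding genes.

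**Figure D1:**
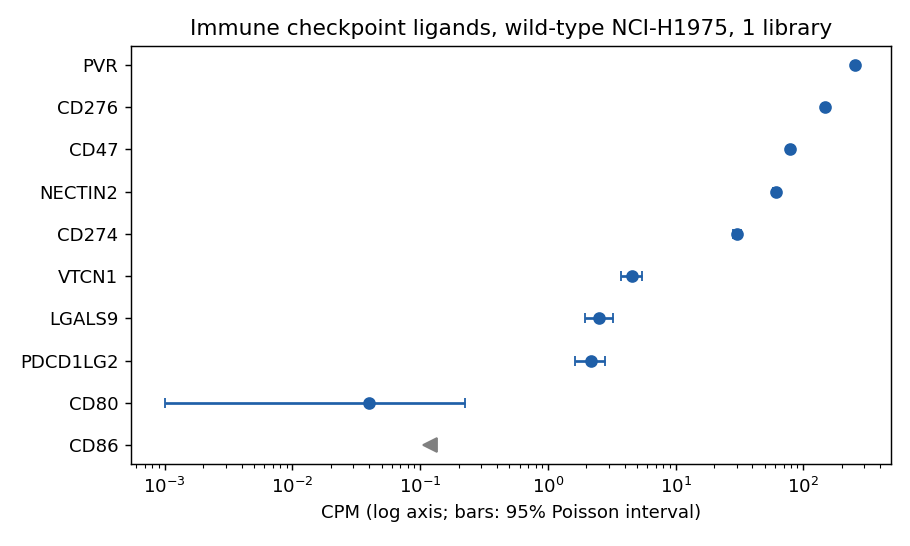
CPM of each checkpoint ligand on a log axis in the single wild-type library. Points are values and bars are 95% Poisson intervals. The arrowhead for CD86, at a count of 0, marks the limit of 0.12 CPM used here. PVR is highest at 252 CPM, and 5 genes lie at or above the 30.4 CPM of CD274.

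CD274 encodes PD-L1, the main PD-1 ligand of tumour cells, and was read at a middling level among detected genes. Its row (ENSG00000120217.13_2) had 760 counts, or 30.4 CPM (28.3 to 32.6), more than 53.8% of detected protein-coding genes. PDCD1LG2 encodes PD-L2, the other PD-1 ligand, which is best known from dendritic cells and macrophages. Its row (ENSG00000197646.7_2) had 54 counts, or 2.16 CPM (1.62 to 2.82), more than 10.9% of detected protein-coding genes. CD274 had 14.1 times the reads of PDCD1LG2 (10.7 to 18.9). The pair lie side by side on chromosome 9 in the RefSeq order of protein-coding genes. The long non-coding RNA gene INCR1 overlaps both in that table, and how reads in the overlap were counted is not known, so both counts and their ratio carry that uncertainty. Their outer neighbours were both detected, with 177 counts for PLGRKT, a plasminogen receptor, and 596 counts for RIC1. PDCD1LG2 therefore had the fewest reads of these 4 neighbouring genes.

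The stretch before the CD274 start site is shown because interferon-responsive factors are known to act on this promoter. The window holds 250 bases up to the start site, from the RefSeq promoter table (GRCh38.p14, chr9:5450292-5450541, plus strand), printed 5′ to 3′. The counts were made on hg19, and this window is used for its letters only. Capitals mark the matches to the motifs searched.
CD274: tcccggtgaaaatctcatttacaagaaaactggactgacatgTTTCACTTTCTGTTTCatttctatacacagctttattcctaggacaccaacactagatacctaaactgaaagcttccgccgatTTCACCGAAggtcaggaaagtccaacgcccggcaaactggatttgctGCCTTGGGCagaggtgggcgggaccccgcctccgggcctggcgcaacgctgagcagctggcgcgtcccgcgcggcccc

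The motifs were searched on both strands of the 250 bases before each start site. They were GAAA followed by any 2 bases and again GAAA for interferon regulatory factors (IRF), TTCNNNGAA for STAT factors, GCCNNNGGC for AP-2 factors such as TFAP2A, and ACGTG for hypoxia-inducible factors. CD274 held 2 overlapping matches to the IRF motif on the minus strand, at 208 to 199 and 202 to 193 bases before the start. It held 1 STAT match at 125 to 117 bases and 1 AP-2 match at 78 to 70 bases before the start. Among 35116 promoter windows of that length 3.02% held the IRF motif, 6.57% the STAT motif, 19.8% the AP-2 motif and 18.5% the hypoxia motif. The table held 11 windows for 9 of the ligands, with 2 each for CD276 and CD86 and none for PDCD1LG2. The IRF and STAT motifs were matched in 1 of the 11 windows, that of CD274. AP-2 matches were in 4, those of CD274 and VTCN1 and both windows of CD276. The hypoxia motif was in 2, the CD47 window and the second CD276 window. A match describes letters and is not evidence of binding.

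The interferon gamma pathway, which is known to induce CD274, was read in parallel. Of its 15 listed genes 14 passed the minimum, and the median over all 15 was 32.9 CPM. The cytokine gene IFNG itself was at 0. The receptor chains IFNGR1 and IFNGR2 had 750 and 951 counts, or 30.0 and 38.0 CPM. Of the receptor's kinases, JAK1 had 3443 counts, or 138 CPM (133 to 142), whereas JAK2, which lies on the same chromosome arm as CD274, had 75 counts, or 3.0 CPM (2.36 to 3.76). Of the signal-carrying STAT genes, STAT2 had 2289 counts and STAT3 had 3631. IRF1, the factor that carries the interferon signal to the CD274 promoter, had 1173 counts, or 46.9 CPM (44.3 to 49.7), IRF2 had 523 and IRF9 had 98. Of the pathway's brakes, SOCS3 had 824 counts, the phosphatase gene PTPN2 had 432 and SOCS1 had 80. NLRC5, an activator of class I antigen presentation genes, had 3654 counts.

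Every one of the 13 listed genes that act on the PD-L1 protein passed the minimum, and their median was 84.7 CPM. CMTM6 and CMTM4, membrane proteins that keep PD-L1 from degradation, had 2119 and 2025 counts, or 84.7 and 81.0 CPM. HIP1R, which directs PD-L1 to lysosomes, had 2846 counts. The ubiquitin ligase genes STUB1 and SPOP had 5999 and 1317 counts, the kinase gene GSK3B had 2159, and the deubiquitinase gene COPS5 had 1618. The oligosaccharyltransferase subunits STT3A and STT3B had 4221 and 2440 counts and the glycosyltransferase B3GNT3 had 991. The palmitoyltransferases ZDHHC3 and ZDHHC9 had 1802 and 2285 counts, and TRAPPC4, a trafficking subunit, had the fewest of the list with 646. In read numbers each gene of this list except TRAPPC4 exceeded CD274.

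CD80 and CD86, the B7 ligands that engage both the activating receptor CD28 and the inhibitory receptor CTLA-4, were not detected. CD80 (ENSG00000121594.11_3) had 1 count, or 0.040 CPM (0.0010 to 0.223). CD86 (ENSG00000114013.15_3) had 0 counts, which allows up to 0.12 CPM. Both are typical of antigen-presenting cells. Both also overlap a neighbouring gene in the RefSeq gene table, CD80 with TIMMDC1, which had 1936 counts, and CD86 with ILDR1, which had 2. The sources used here do not say how reads in such an overlap were counted, and its part in the CD80 value was not tested. Of 19 markers of leukocytes and antigen-presenting cells 5 were detected, among them CSF1R with 731 counts, CD14 with 600, CD79A with 217 and ITGAX with 69. The list summed to 1659 counts. The pan-leukocyte gene PTPRC had 2, CD68 had 4, TYROBP had 1, and CD163, CYBB, AIF1, CLEC9A and CD1C were at 0.

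CD276 and VTCN1 encode B7-H3 and B7-H4, B7 proteins with inhibitory activity on T cells whose receptors are not settled. CD276 (ENSG00000103855.17_2) had 3675 counts, or 147 CPM (142 to 152), and 90.4% of detected protein-coding genes had fewer reads. VTCN1 (ENSG00000134258.12) had 114 counts, or 4.56 CPM (3.76 to 5.48), above 17.5%. CD276 had 32.2 times the reads of VTCN1 (26.8 to 39.2) and 4.84 times those of CD274 (4.47 to 5.24). Across the 10 listed B7 family genes CD276 held 63.1% of 5828 reads (61.8 to 64.3). VSIR, the gene of VISTA, held 16.3% with 948 counts and CD274 held 13.0%. NCR3LG1, which encodes the NK cell ligand B7-H6, held 3.16% with 184 counts, and the ICOS ligand gene ICOSLG held 1.58% with 92. HHLA2 was at 0. The family was thus read through 7 detected genes, 1 of which held most of its reads.

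PVR and NECTIN2 encode CD155 and CD112, which bind the inhibitory receptor TIGIT and the activating receptor CD226. NECTIN2 is also the ligand of PVRIG. PVR (ENSG00000073008.14_3) had 6309 counts, or 252 CPM (246 to 259), and 95.4% of detected protein-coding genes had fewer reads. NECTIN2 (ENSG00000130202.9_3) had 1535 counts, or 61.4 CPM (58.3 to 64.5), above 73.1%. PVR had 4.11 times the reads of NECTIN2 (3.89 to 4.35). PVR overlaps CEACAM19 in the RefSeq gene table, a gene with 774 counts, so reads in that overlap are uncertain for both genes. Of the 10913 reads of PVR and the 4 nectin genes, PVR held 57.8% (56.9 to 58.7). NECTIN1 held 14.7% (14.0 to 15.4), NECTIN2 14.1% (13.4 to 14.7) and NECTIN4 12.5% (11.9 to 13.2), while NECTIN3, the remaining family gene, held 0.880% with 96 counts.

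LGALS9 encodes galectin-9, a carbohydrate-binding protein known as a ligand of TIM-3. Its row (ENSG00000168961.16_6) had 63 counts, or 2.52 CPM (1.94 to 3.22), more than 12.1% of detected protein-coding genes. The near-identical copies LGALS9B and LGALS9C had 2 and 6 counts. Reads of these 3 genes may have been split or dropped, so the separate values are uncertain. LGALS9 held 88.7% (79.0 to 95.01) of their 71 reads. The galectin genes LGALS1 and LGALS3, both listed as other inhibitory ligands, had 39103 and 3091 counts, so LGALS9 had the fewest reads of the listed galectins apart from its copies.

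CD47 (ENSG00000196776.15_3) had 1972 counts, or 78.8 CPM (75.4 to 82.4), more than 79.3% of detected protein-coding genes. It had 2.59 times the reads of CD274 (2.39 to 2.82). All 6 listed genes that act with or against CD47 were detected. QPCTL, the enzyme that modifies CD47 for SIRP alpha binding, had 552 counts, or 22.1 CPM (20.3 to 24.0). CALR, whose protein calreticulin promotes engulfment when at the cell surface, had 20181 counts, or 807 CPM, and its receptor gene LRP1 had 11568, or 462 CPM. THBS1 encodes thrombospondin, a secreted CD47 ligand, and had 7473 counts. The phosphatases PTPN6 and PTPN11, which act below SIRP alpha, had 618 and 2529.

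Placed in order of reads, neighbouring ligands differed by more than counting error at each step but 1. PVR had 1.72 times the reads of CD276 (1.65 to 1.79), CD276 had 1.86 times those of CD47 (1.76 to 1.97), and CD47 had 1.28 times those of NECTIN2 (1.201 to 1.37). NECTIN2 had 2.02 times those of CD274 (1.85 to 2.21), CD274 had 6.67 times those of VTCN1 (5.47 to 8.19), and VTCN1 had 1.81 times those of LGALS9 (1.32 to 2.50). LGALS9 and PDCD1LG2 could not be ordered, with a ratio of 1.17 (0.798 to 1.71). The gap between CD274 and VTCN1 parts 5 genes with 760 to 6309 counts from 5 with 0 to 114. Several of the steps are small enough for a difference in transcript length to change the order of levels.

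**Figure D2:**
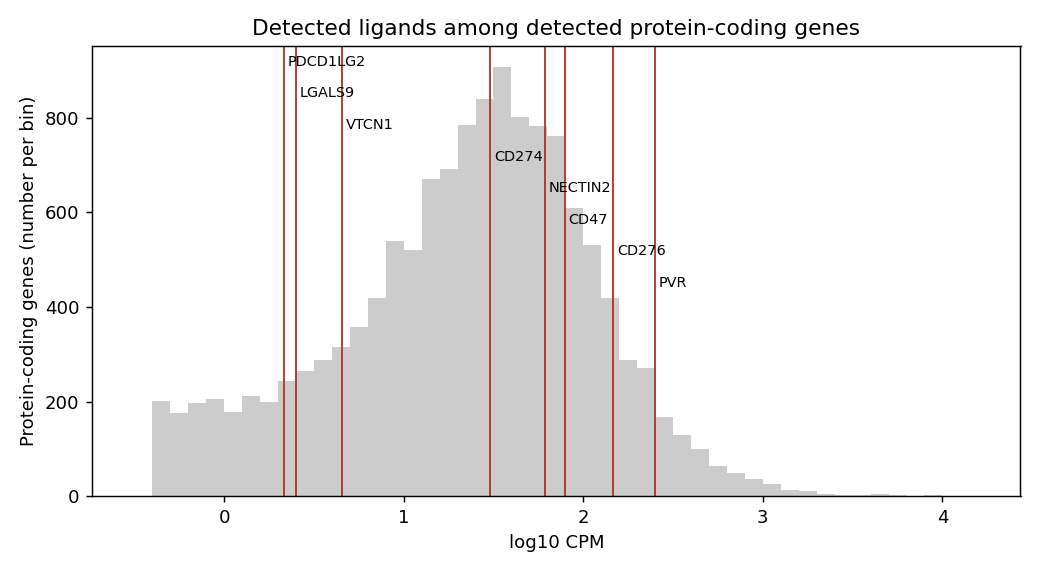
Histogram of log10 CPM for the 13279 detected protein-coding genes, with a line at each of the 8 detected checkpoint ligands. PDCD1LG2, LGALS9 and VTCN1 lie in the lower part of the distribution, CD274 near its middle at 30.4 CPM, and CD276 and PVR in the upper part.

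Receptors of these ligands and related lymphocyte receptors were mostly under the minimum in the tumour cells. Of 16 listed genes 2 were detected, 6 had 1 to 9 counts and 8 were at 0. PDCD1, CTLA4, CD28, PVRIG, HAVCR2 (the gene of TIM-3), BTLA, ICOS and TMIGD2 were at 0. TIGIT, CD96 and CD160 had 1 count each, SIRPG and KLRG1 had 5 each and CD226 had 8. LAG3, an inhibitory receptor of T cells, had 82 counts, or 3.28 CPM (2.61 to 4.07). SIRPA, the CD47 receptor, had 2418 counts, or 96.7 CPM (92.9 to 101), more than 83.4% of detected protein-coding genes. SIRPA resembles other genes of its family, so its reads may have been split among them.

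**Figure D3:**
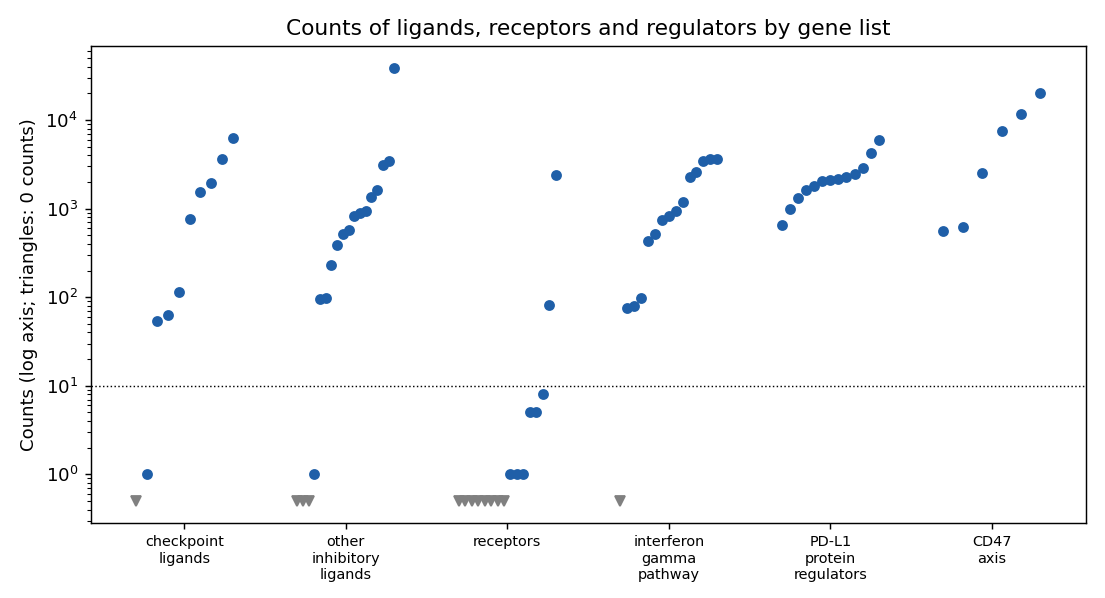
Counts per gene on a log axis for the checkpoint ligands, other inhibitory ligands, receptors, interferon gamma pathway, regulators of the PD-L1 protein and the CD47 axis; each point is a gene, triangles are genes at 0 counts and the dotted line is the minimum of 10. Of the receptors 2 lie above the line, whereas all 13 PD-L1 protein regulators do.

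The promoters of the ligands differed in their number of CpG dinucleotides, the sites of DNA methylation in vertebrates. In the 250 bases before the start CD47 had 39, PVR 27, NECTIN2 19 and CD274 16, and the windows of CD276 had 29 and 23. CD80 and VTCN1 had 6 each, the windows of CD86 had 2 and 4, and LGALS9 had 1. Among the 9 ligands with a window, those with 760 counts or more had at least 16 CpG, and those with 114 counts or fewer had at most 6. PDCD1LG2, with 54 counts, had no window and is not part of this split. Both CD276 windows and the second CD86 window precede a start site other than the annotated start of the gene. The first CD86 window lies over ILDR1. The 15238 protein-coding genes with a window were split at the detection minimum, not at the gap between these ligands. With CpG averaged over each gene's windows, their median was 20 CpG in detected genes and 5 in the others. By that rule VTCN1 and LGALS9, with 6 CpG and 1, count as detected, and CD80 and CD86 do not. Over single windows, detected ligands then spanned 1 to 39 CpG and the others 2 to 6, or 3 to 6 when averaged by gene. The ligand split therefore did not hold at that minimum. The 15238 genes were also divided at the quartiles of their averaged CpG number. The share detected was 32.5% in the group with the fewest CpG and 78.0%, 87.3% and 89.1% in the groups above it. CD80, CD86, VTCN1 and LGALS9 fell in the lowest group, CD274 in the second, NECTIN2 in the third, and CD276, PVR and CD47 in the highest. This is a description of 1 library, and methylation was not analysed here.

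The windows of 4 ligands show this difference in letters, with CpG in capitals. They come from the RefSeq promoter table (GRCh38.p14), 250 bases each, 5′ to 3′ along the gene: CD47 from chr3:108091032-108091281 (minus strand), PVR from chr19:44643660-44643909 (plus), CD80 from chr3:119559615-119559864 (minus) and LGALS9 from chr17:27630938-27631187 (plus).
CD47: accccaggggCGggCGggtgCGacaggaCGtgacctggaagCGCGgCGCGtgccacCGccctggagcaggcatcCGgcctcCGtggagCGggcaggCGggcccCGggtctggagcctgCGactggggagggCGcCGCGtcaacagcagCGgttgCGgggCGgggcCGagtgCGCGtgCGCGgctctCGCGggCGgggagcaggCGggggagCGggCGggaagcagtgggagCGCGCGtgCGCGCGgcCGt
PVR: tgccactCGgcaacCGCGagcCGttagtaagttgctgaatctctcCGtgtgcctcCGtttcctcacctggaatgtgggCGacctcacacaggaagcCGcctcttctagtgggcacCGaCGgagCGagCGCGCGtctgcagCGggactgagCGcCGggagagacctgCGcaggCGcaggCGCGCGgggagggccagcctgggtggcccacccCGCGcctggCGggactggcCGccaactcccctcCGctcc
CD80: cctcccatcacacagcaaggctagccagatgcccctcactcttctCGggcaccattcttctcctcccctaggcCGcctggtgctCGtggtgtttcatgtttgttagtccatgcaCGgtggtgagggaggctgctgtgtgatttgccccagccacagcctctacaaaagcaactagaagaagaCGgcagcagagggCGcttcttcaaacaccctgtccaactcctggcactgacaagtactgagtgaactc
LGALS9: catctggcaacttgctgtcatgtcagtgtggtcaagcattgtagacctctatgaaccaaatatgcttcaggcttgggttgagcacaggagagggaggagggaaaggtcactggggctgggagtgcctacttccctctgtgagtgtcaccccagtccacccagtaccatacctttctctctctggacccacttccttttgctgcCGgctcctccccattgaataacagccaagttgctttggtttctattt
CpG is spread along the CD47 and PVR windows, the genes with 1972 and 6309 counts. It occurs at 6 places in the CD80 window, a gene with 1 count, and at 1 place in that of LGALS9, with 63 counts.

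**Figure D4:**
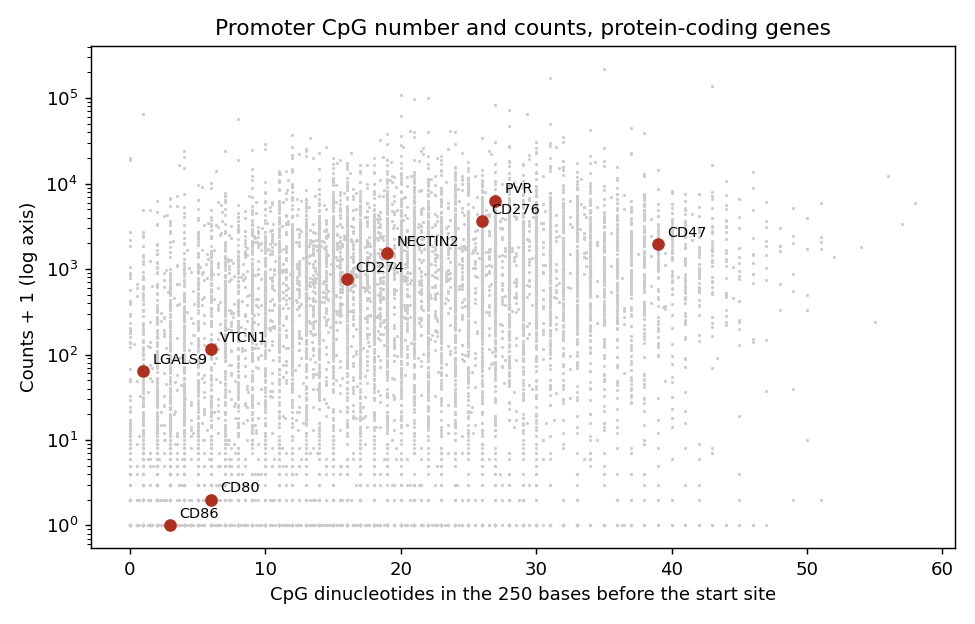
Counts plus 1 on a log axis against the number of CpG in the 250 bases before the start site (mean over a gene's windows), for 15238 protein-coding genes in grey and 9 checkpoint ligands in red. The ligands with at most 6 CpG have 0 to 114 counts, and those with 16 or more have 760 to 6309.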

How the data were processed

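The authors deposited raw counts of reads for each gene, as whole numbers with no normalisation. The submitters' processing notes list hg19 and, among other tools, featureCounts and STAR, with no role stated for any. Per the labels' protocols, a directional library was made from 1 ug of total RNA. Annotation, strand setting and the handling of shared reads are not stated in these sources, so overlapping and near-identical genes are uncertain.

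Identifiers were matched without version to symbols for 56373 rows, which held 99.8% of counts. CPM was computed from the 25012733 counts. Intervals are Garwood (Poisson) and Clopper-Pearson (binomial, and ratios conditional on the pair) at 95%. A count of 0 is given as a limit of 3 counts. Reads are not independent molecules. With 1 library no test was made. Interval code was checked on simulated Poisson counts.

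The genes and lists were chosen with earlier results of these data known. The rule for named genes was all 10 ligands and any gene of the fixed lists, with neighbouring genes by RefSeq order. Overlapping genes, CpG numbers, and the B7, nectin and galectin-9 groupings were chosen after counts were seen. Levels per coding length were planned but no lengths were used here, so raw read ratios replace them. CD24 had no row by name, and a few listed genes are not reported here. RefSeq tables (GRCh38.p14) gave names, gene order, gene type and promoter letters. Alternatives were other minimums, thinning to 50%, other totals and LGALS9 summed with its copies. Computation used SciPy 1.17.1, pandas 2.3.3 and NumPy 2.4.6 under Python 3.11.15, and figures used Matplotlib 3.10.9.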

Additional observations from a re-analysis of the deposited data

How the results depend on the processing

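The number of ligands detected was 8 at minimums of 10 counts, 50 counts and 1 CPM and after thinning the counts to 50%, and 9 at a minimum of 1 count, where CD80 enters. Of 44 detection counts over the lists under these alternatives 41 stayed within 1.5 times. The 3 exceptions were all at a minimum of 1 count, with 8 receptors, 2 LGALS9 copies and 11 leukocyte and antigen-presenting cell markers. All 5 read ratios stayed inside their intervals after thinning, which draws from the same reads and so is no check against another library. Totals without mitochondrial genes, without the 10 highest genes or over protein-coding genes raised each nonzero CPM by a factor of 1.06, 1.08 or 1.09, which leaves orders and ratios as they were. Of 31 CPM values under another total or summed with copies, 14 left their Poisson intervals, among them 274 CPM for PVR and 159.9 CPM for CD276 over protein-coding genes. LGALS9 summed with its copies had 2.84 CPM, within its interval. The planned order and ratios per coding length were not run, because no lengths were used here. No ratio of CD80 to CD86 was computed, as both were under the minimum. No paired analysis was possible because values come from a single library. Depth limits CD80 and CD86 to bounds, and intervals for PDCD1LG2 and LGALS9 are wide.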

Other observations

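Ligands that activate lymphocytes were also read, and all 9 listed ligands of activating NK cell receptors were detected. At a minimum of 50 counts 6 of them passed. The median of the 9 was 5.32 CPM. MICA, a ligand of the receptor NKG2D, had 543 counts, or 21.7 CPM (19.9 to 23.6), ULBP2 had 241, ULBP1 had 239, MICB had 133 and ULBP3 had 102. RAET1E, RAET1L and RAET1G had 47, 45 and 35. These genes resemble each other and MICA and MICB are polymorphic, so single values are uncertain. Of 10 genes in the list named other costimulatory and adhesion ligands, which also holds the receptor gene CD40, 7 were detected. The adhesion gene ICAM1 had 2503 counts, or 100.1 CPM, the 4-1BB ligand gene TNFSF9 had 1268, or 50.7 CPM (47.9 to 53.6), CD70 had 957 and CD40 had 438. TNFSF18 and CD48 were at 0 and TNFSF4 had 2.

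Of 18 genes with a row in the list named other inhibitory ligands 14 were detected. The name is a label of the list, and the activity of its genes was not tested. The butyrophilins BTN3A2, BTN3A1, BTN2A1, BTN3A3 and BTN2A2 had 904, 570, 518, 388 and 230 counts, and BTN1A1 had 1. BTN3A genes resemble each other closely, which makes their split uncertain. TNFRSF14, which encodes the BTLA ligand HVEM, had 819 counts, or 32.7 CPM (30.5 to 35.1), CEACAM1 had 97, and CD200, FGL1 and HHLA2 were at 0.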
